A study of Bactrocera dorsalis with 4 samples.

Results

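The known microRNAs (miRNAs) of the testes were compared with those of the rest of the male body in the oriental fruit fly, Bactrocera dorsalis, a pest of cultivated fruit. The members were all known miRNA names in the deposited list of either male library, taken from entries that the authors marked as identical to a miRBase sequence (Yes) or as a variant of one (Diff). They were 151 of the 163 known names found over the 4 libraries of the series, and the other 12 were in neither male list. The libraries held small RNA of adults aged 12 days. The male body without testes and the testes were each represented by 1 library, and 1 library each of the female body without ovaries and of the ovaries served as a reference. Flies were kept apart by sex from emergence, so the males had not mated, and they were not described as mutant or treated. The body library is everything that remained after dissection, so nerve, muscle, gut, fat body and any reproductive tissue other than the testes cannot be told apart in it. The number of flies behind each library is not given in the sources used here.

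The deposited lists give a name, a sequence, its length and a genome position for each entry, and they hold no read numbers. A miRNA was therefore listed or not listed. The depth behind a single entry is unknown, and a name that a list does not hold cannot be read as a level of 0. With 1 library on each side no test between testes and body was possible, so all differences below are counts that describe these 2 libraries. In a bulk library, fewer cells of a type and less of a miRNA per cell cannot be told apart.

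A miRNA gene is transcribed into a hairpin, which is cut into a short duplex whose strands are called the 5p and the 3p arm. In most hairpins one arm is loaded into an Argonaute protein and guides it to target mRNAs, while the other arm is largely degraded. Pairing with a target rests mainly on the seed, the bases 2 to 8 of the mature miRNA. In Drosophila melanogaster, miRNAs of the testis include fast-evolving clusters that few other tissues use, whereas miRNAs such as miR-1 in muscle and miR-124 in neurons mark somatic tissues.

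The male body list held 137 known names and the testis list 134, and 120 of them were the same. These shared names were 87.6% of the body list and 89.6% of the testis list. There were 17 names in the body list only, 11.3% of the 151 names in either list, and 14 in the testis list only, 9.27% of the same 151. Counted by name, the difference between the lists therefore lay in 31 names, which are all given below. A further 22 shared names differed in their sequences.

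The sequences of the names in the body list only are shown because they are the body side of the difference by name. They are given 5′ to 3′ as deposited, with T for U and with the seed in capitals. The first 6 are names tied to nerve cells or sense organs, followed by both names of miR-210.
miR-1000-3p: cTGCTGGGccggggcattaaca
miR-190-3p: cCCAGGAAtcaaacatattatt
miR-219: tGATTGTCcaaacgcaattct
miR-276b-5p: aGCGAGGTatagagttcctacgg
miR-315-3p: cTTTCGAGcaataattaaaacc
miR-929-3p: cTCCCTAAcggagtcagattg
miR-210: cTTGTGCGtgtgacagcggctatg
miR-210-5p: aGCTGCTGgccactgcacaagat
miR-956-5p: gTGTTTGGaatggtctcgctggc
miR-981-5p: cGGGTTTCgtaagcagcgggct
miR-963-3p: aCATCTGTatatacctttgttct
miR-4961-5p: cTTTATGTgtatgtatgt
miR-4966-5p: tACTAAATatattgcacatgtt
miR-9369-5p: aGCGAGAGggtattatgtattc
The remaining body-only names were miR-137-3p, miR-312-3p and miR-991-3p. Of the precursors on B. dorsalis contigs, that of miR-219 spanned 423692 to 423769 on the minus strand of JFBF01000126.1, and that of miR-137-3p 1174569 to 1174693 on the minus strand of JFBF01000025.1. miR-210 and miR-210-5p overlapped on the minus strand of JFBF01000084.1, from 612849 to 612986 and from 612915 to 612995. The shared miR-210a was placed on the same bases as miR-210-5p. miR-276b-5p had 2 precursors on the plus strand of JFBF01000015.1, which started at 91725 and 288545, and miR-276b-3p, in both lists, was placed on the same 2.

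The names in the testis list only are shown in the same way, because several of them are, by name, the second arm of a hairpin whose first arm was in both lists, and because miR-1003-3p and miR-1004-3p have the same seed.
miR-1003-3p: tCTCACATttacatattcaca
miR-1004-3p: tCTCACATcacttccctcacag
miR-959-3p: tTGGCATCgggggtattatg
miR-961-5p: tTTGATCAccagtaactgagat
miR-9c-3p: tAAAGCTTttataccaaagct
miR-iab-4-3p: tATACCTTcagtatacgtaact
miR-11-5p: cAAGAACTttctctgtgacccg
miR-92b-5p: aGGTCGTGcctggtgcttaatt
miR-282-3p: aCATAGCCtaaaagaggttagg
miR-314-5p: cTTGTTTGgcttcgaact
miR-958-5p: aGTAGAATagcaggcttatcaca
The remaining testis-only names were miR-5-3p, miR-309-3p and miR-310-3p. The precursor of miR-92b-5p spanned 2827283 to 2827355 on the minus strand of contig JFBF01000012.1, and that of miR-282-3p 5403998 to 5404093 on the minus strand of JFBF01000001.1. The mirtrons were placed under Drosophila arm names, miR-1003-3p on 3R from 20484327 to 20484382 and miR-1004-3p on 2L from 3767621 to 3767688.

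Each of these sequences was set against every entry of the other male list. Of the 17 body-only names, 15 had no close relative there, meaning a run of at least 15 bases in common, and their longest run of bases in common with a testis entry was 6 to 10 bases with a median of 7 over all 17. None of the 14 testis-only names had a close relative in the body list, with a longest run of 6 to 10 bases and a median of 7. The exceptions were miR-210 and miR-276b-5p, shown here beside the shared name that each of them contains.
miR-210, male body only: cttgtgcgtgtgacagcggctatg
miR-210a, both lists: cttgtgcgtgtgacagcggct
miR-276b-5p, male body only: agcgaggtatagagttcctacgg
miR-276a-5p, both lists: agcgaggtatagagttcctacg
The 24 nt miR-210 ran 3 bases beyond the 21 nt miR-210a at its 3′ end, and the 23 nt miR-276b-5p ran 1 base beyond the 22 nt miR-276a-5p. No base differed within the shorter sequence. For these 2 names the lists therefore differ in a 3′ end and in a name, and not in a seed. In Drosophila, miR-210 is known from photoreceptors and clock neurons, and miR-276a acts in olfactory memory.

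Several body-only names are known from the nervous system. A list of 20 hairpins known from the nervous system and sense organs of Drosophila or of other animals had all 20 hairpins in the male lists, as 35 mature names. All 35 were in the body list and 28 of them in the testis list. The 7 without a testis entry were miR-1000-3p, miR-137-3p, miR-190-3p, miR-219, miR-276b-5p, miR-315-3p and miR-929-3p, and no name of this list was in the testes only. This is 7 of 35 beside 17 of 151 over all names. The list left out miR-210, of which miR-210 and miR-210-5p were in the body only and miR-210a was in both lists. The share thus rests on the make-up of the list. Of the 7, only miR-929-3p was in both bodies and in neither gonad. miR-137-3p and miR-219 were also in the female body and the ovaries. miR-1000-3p, miR-190-3p, miR-276b-5p and miR-315-3p were not in the female body, which holds nerve too. miR-276b-5p contains miR-276a-5p, which is among the 28 shared names of this list. miR-1000 acts in neurons of Drosophila on a glutamate transporter, miR-315 promotes Wingless signalling, and miR-137 and miR-219 are known as brain miRNAs of vertebrates. The neuronal miR-124 and the sensory organ miRNAs miR-9a, miR-263a and miR-263b were listed in both libraries. For 5 of the 7 names the opposite arm of the hairpin was in both lists, so the hairpin itself was listed for the testes.

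Of all 151 names in either list, 120 were in both, and the other lists of somatic, metabolic and germline miRNAs are read beside that share. All 7 names of the let-7 complex (let-7, miR-100 and miR-125), which is tied to adult development and to sexual identity in Drosophila, were in both lists. Both arms of miR-1, the muscle miRNA, were also in both, while miR-133 was in neither. The same held for the 8 names of a list of metabolic miRNAs, which includes miR-8, miR-14, miR-278 and miR-305. The 9 names of a list tied to germline stem cells and growth, among them miR-7, miR-184, miR-275 and miR-306-5p, were in both lists too, and bantam was in neither. Shared names could still differ in their sequences, as miR-1-3p, miR-275-5p and miR-278-3p did. No test was made on these lists. Detection of miR-1 and miR-124 in the testis list gives no amount, so it does not say how much nerve, muscle or other somatic RNA that library held.

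**Figure D1:**
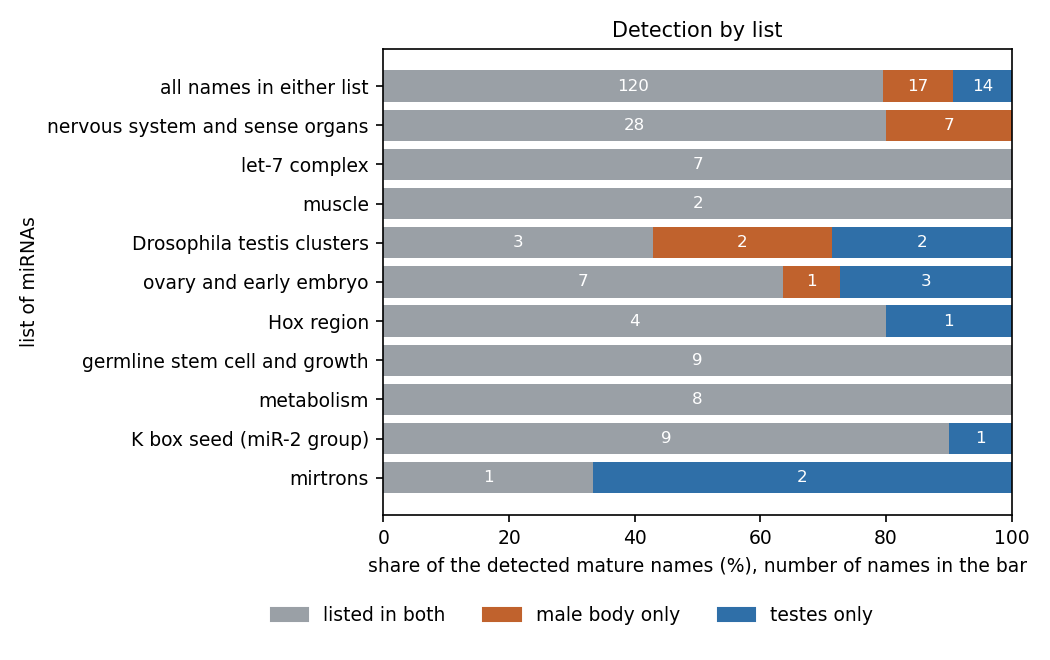
Share (%) of the detected mature names of each miRNA list (rows) that were in both male libraries, in the male body only or in the testes only; the number inside a bar is the number of names. All 151 names are at the top with 120, 17 and 14, and the nervous system list has 28, 7 and 0.

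The miRNA clusters known from the testis of Drosophila were listed in part. Of 20 hairpins in such clusters, 7 were found in either male list, each by 1 mature name. Of these, 3 were shared (miR-975-5p, miR-976-3p and miR-983-5p), 2 were in the testes only (miR-959-3p and miR-961-5p), and 2 were in the body only (miR-963-3p and miR-991-3p). Each library thus held 5 of the 7. The list left out miR-4966, which the paper places in a Drosophila cluster with miR-973 and miR-975 that is high in the testis. miR-4966-5p was in the body only, as was miR-9369-5p, which the paper names in the same X chromosome cluster. The even split thus rests on the make-up of the list. Over all 151 names, 17 were in the body only and 14 in the testes only. miR-975-5p was in neither female list, and it is 1 of 3 shared names with that pattern beside miR-1012-3p and miR-4968-3p. The hairpins not listed in either male library included miR-973, miR-982 and miR-984. The paper names these hairpins, with miR-975, miR-983, miR-4966 and miR-9369, in an X chromosome cluster. It describes that cluster as low in every sample of B. dorsalis, unlike in Drosophila. The part of such low levels in which of these names were listed was not tested.

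Names placed close together were split between the libraries. The positions on 2L, 2R and X that follow are under Drosophila arm names of unstated build, so they do not show that these miRNAs are neighbours in B. dorsalis. miR-959, miR-961 and miR-963 belong to a cluster that in Drosophila is expressed in the testis and in the fat body of the head, where it cycles with the clock. All 3 were placed on the plus strand of the arm named 2L, where the precursor of miR-959-3p started at 5640940, that of miR-961-5p lay 251 bases further and that of miR-963-3p 1050 bases further. The first 2 were listed in the testes and the ovaries, and miR-963-3p was listed in the male body alone. In the same way, miR-310-3p (testes and female body), miR-311-3p (all 4 libraries) and miR-312-3p (both bodies and the ovaries) had their starts within 304 bases of each other on the minus strand of arm 2R. This cluster restrains the Wingless effector armadillo in the testis of Drosophila. miR-991-3p, in the male body alone, lay 1448 bases from the first of them. On arm X, miR-9369-5p and miR-4966-5p (body only) lay 7435 and 383 bases before the shared miR-975-5p. Other names in the testes only stood among shared neighbours on B. dorsalis contigs. The precursor of miR-309-3p, from 205208 to 205296 on the minus strand of contig JFBF01000054.1, lay between copies of miR-4-3p and miR-6-3p, and the cluster of these miRNAs clears maternal mRNAs in the early Drosophila embryo. That of miR-9c-3p started 2247 bases from miR-306-5p on contig JFBF01000027.1.

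**Figure D2:**
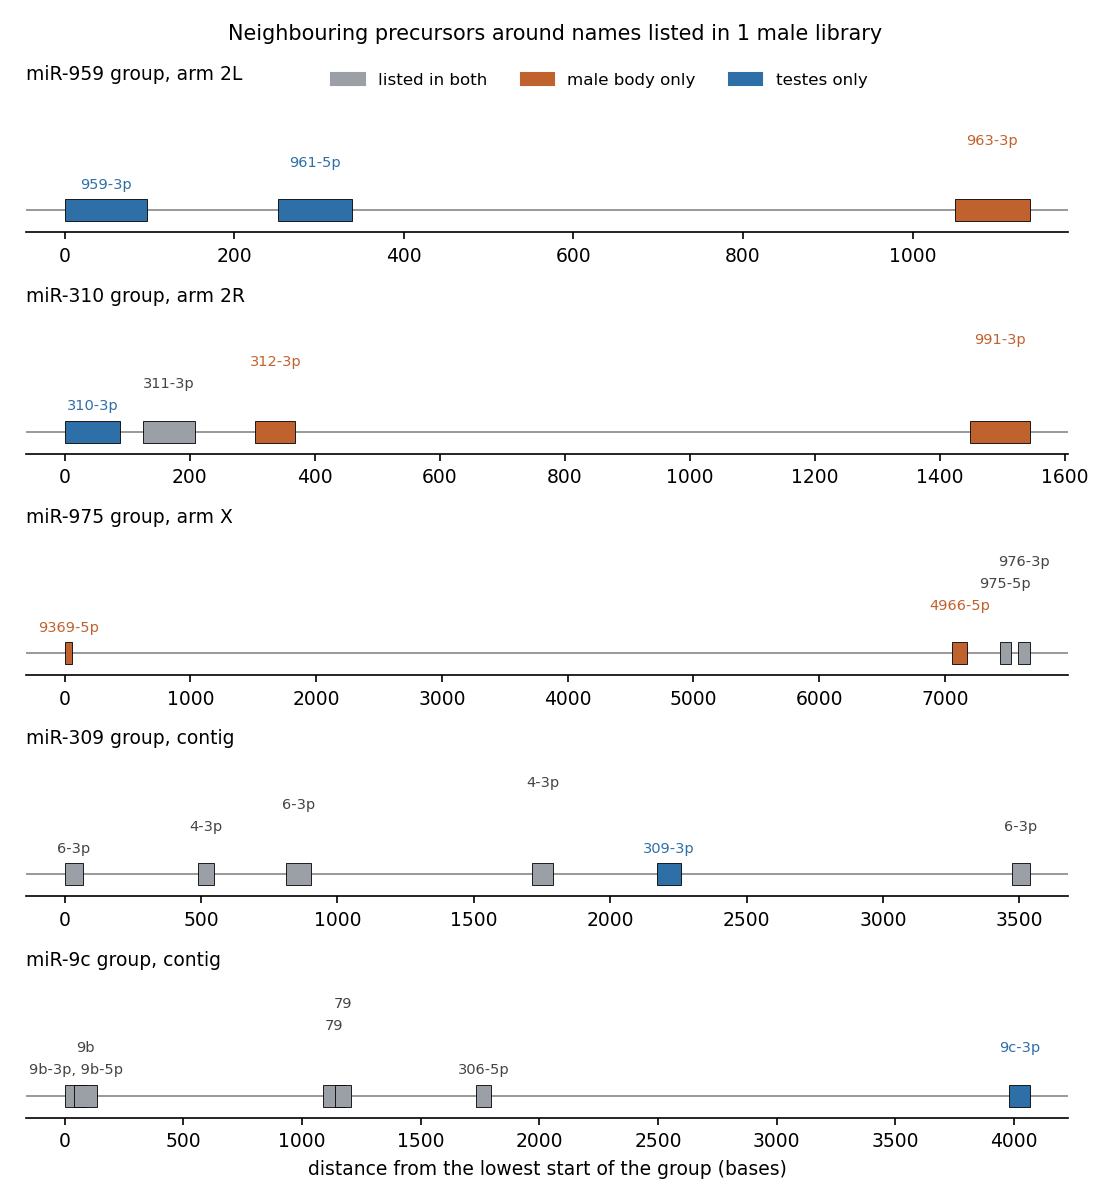
Precursors (boxes, drawn to scale) around names listed in only 1 male library in 5 groups of neighbours, against the distance in bases from the lowest start in the group, of which the upper 3 are under Drosophila arm names; grey boxes were in both lists, orange in the male body only and blue in the testes only, and the labels leave out miR-. The opposite arm of an orange or blue hairpin is not drawn apart. Orange and blue boxes stand within 1050 bases of each other's start in the miR-959 group and within 304 in the miR-310 group.

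The next lists are small and stand beside 120 shared, 17 body-only and 14 testis-only names of 151 over all names. Of 11 names known from the ovary and the early embryo, 7 were shared, 3 were in the testes only (miR-309-3p, miR-310-3p and miR-5-3p) and 1 was in the body only (miR-312-3p). Of 5 names of the Hox region, 4 were shared and miR-iab-4-3p was in the testes only. Of 10 names around the miR-2 group, whose 3p arms mostly carry the seed ATCACAG that pairs with the K box of target mRNAs, 9 were shared and miR-11-5p was in the testes only. Mirtrons are miRNAs made from short spliced introns, which bypass the enzyme Drosha. Among 3 mirtron names, miR-1003-3p and miR-1004-3p were in the testes alone and miR-1012-3p was in both male lists and in neither female list. These lists were not tested either.

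The female libraries show how far the male split follows a split of body and gonad. Of the 17 body-only names, 8 were also in the female body and 5 in the ovaries, and 8 were in neither. The 4 names in both bodies and in neither gonad were miR-210, miR-210-5p, miR-929-3p and miR-981-5p. The 8 in the male body alone were miR-1000-3p, miR-190-3p, miR-276b-5p, miR-315-3p, miR-4961-5p, miR-4966-5p, miR-963-3p and miR-991-3p. Of the 14 testis-only names, 6 were also in the ovaries and 3 in the female body, and 7 were in neither. The 7 in the testes alone were miR-1003-3p, miR-1004-3p, miR-11-5p, miR-314-5p, miR-92b-5p, miR-958-5p and miR-iab-4-3p. In both gonads and in neither body were miR-5-3p, miR-959-3p, miR-961-5p and miR-9c-3p. Among the 120 shared names, by contrast, 106 were in both female lists. For comparison, the female body and the ovaries shared 114 names, with 23 in the body only and 8 in the ovaries only. The male and the female body shared 124, with 13 in each alone. The testes and the ovaries shared 113, with 21 in the testes only and 9 in the ovaries only. The male and female bodies thus differed by 26 names, where the male body and the testes differed by 31. The libraries were not of equal depth. By the paper's clean reads, the ovaries had the fewest, followed by the female body, the testes and then the male body. None of these counts was adjusted for depth, and its part in them was not tested.

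**Figure D3:**
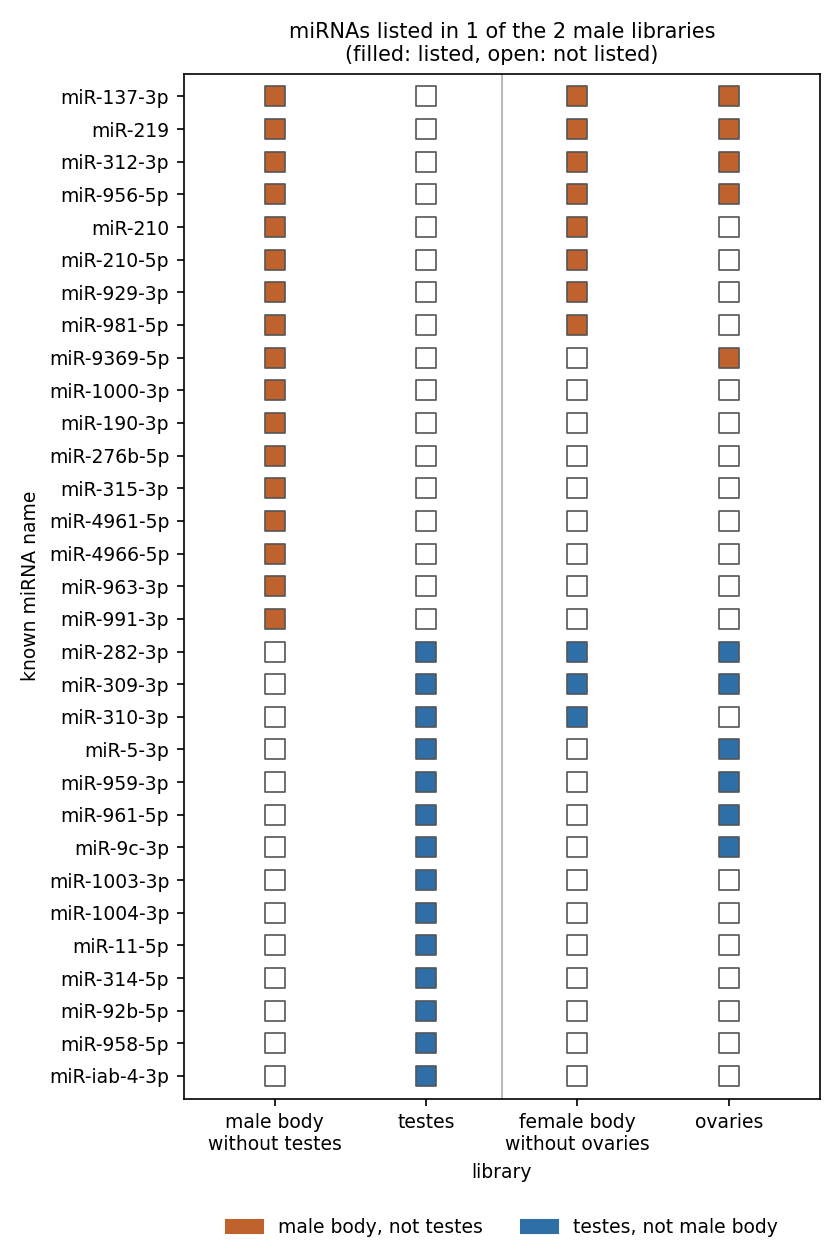
Known miRNA names (rows) listed in only 1 of the male libraries, shown in the 4 libraries (columns); a filled square means that the name was in the list and an open square that it was not. The upper 17 names were in the male body and not in the testes, and the lower 14 were in the testes and not in the male body. Rows filled in 1 column only number 8 among the body-only and 7 among the testis-only names.

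The place of the entries was also compared across the split. B. dorsalis contigs have names that start with JFBF, but some entries carry the chromosome arm names 2L, 2R, 3L, 3R and X of Drosophila. Such entries made up 26.8% of the 205 entries in the body list and 25.4% of the 185 in the testis list. Of the shared names, 12 of 120 were placed only under an arm name, compared with 6 of 17 (35.3%) of the body-only names and 9 of 14 (64.3%) of the testis-only names. At least 1 entry lay under an arm name for 48 of the 120 shared names. For the body-only and testis-only names these counts were again 6 and 9. Shared names pool the entries of both lists, so they more readily have an entry elsewhere. Entries identical to miRBase were found for 40.8% of the shared names, 29.4% of the body-only and 35.7% of the testis-only names. Without the arm-named entries, 107 names were shared, 11 were in the body only and 6 in the testes only. The part of this placement in the split was not tested.

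The names were also compared by the arms of their hairpins. Hairpins were paired by name, and in 43 of them the 5p arm and the 3p arm were each named in at least 1 of the male lists. Both arms were listed for 35 pairs in the body and for 36 in the testes, and for 32 in the female body and 29 in the ovaries. The pairs were chosen on the male lists, which lowers the female numbers by construction. In 28 pairs both arms were in both male lists. The other 15 were complete in 1 list and had a single arm in the other, so no hairpin of the 43 was missing from a list, and none had its 5p arm alone in one list and its 3p arm alone in the other. Complete in the testes only were miR-11, miR-314, miR-92b and miR-958, whose 5p arm was not listed for the body, and miR-282, miR-5, miR-9c and miR-iab-4, whose 3p arm was not. Complete in the body only were miR-276b, miR-956 and miR-981, without a 5p arm in the testes, and miR-1000, miR-190, miR-315 and miR-929, without a 3p arm there. So 15 of the 31 names in 1 list only were, by name, the second arm of a hairpin found in both libraries. The body-only miR-210-5p is not among these 15, because the shared miR-210a, placed on the same bases, has no arm in its name. Among the 120 shared names, both names of each of the 28 complete pairs likewise had their other arm in both lists. Having its other arm in both lists is thus not particular to a name in 1 list only. For 13 of the 15 hairpins complete in 1 list only, the positions of the arms overlapped on 1 strand. For miR-11 and miR-956 one arm was placed on a B. dorsalis contig and the other under a Drosophila arm name, so a common precursor was not shown.

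**Figure D4:**
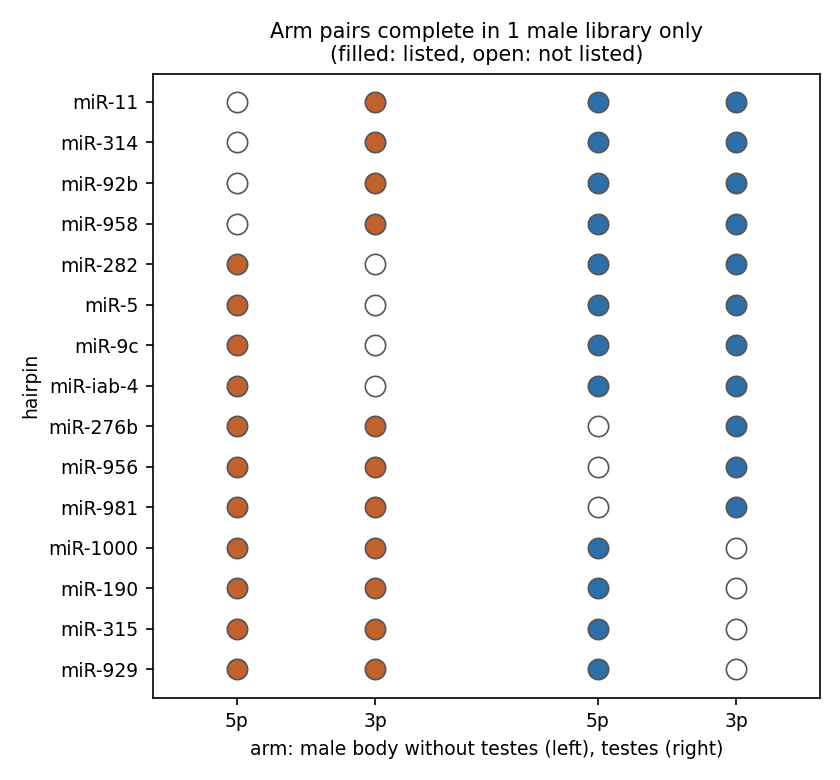
The 15 hairpins (rows) whose pair of arms was complete in only 1 male library; the left 2 columns are the 5p and 3p arms in the male body without testes and the right 2 those in the testes, filled when listed. The upper 8 are complete in the testes and the lower 7 in the male body, and each hairpin has at least 1 filled circle on both sides.

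Of the pairs with overlapping positions, 4 are shown here as examples with the seed of each arm in capitals. miR-315 and miR-1000 had the 3p arm in the body only. miR-iab-4, which in Drosophila represses the Hox gene Ultrabithorax, and miR-9c had it in the testes only.
miR-315-5p: tTTTGATTgttgctcagaaagcc
miR-315-3p: cTTTCGAGcaataattaaaacc
miR-1000-5p: aTATTGTCctgtcacagcagt
miR-1000-3p: cTGCTGGGccggggcattaaca
miR-iab-4-5p: aCGTATACtgaatgtatcctga
miR-iab-4-3p: tATACCTTcagtatacgtaact
miR-9c-5p: tCTTTGGTattctagctgtaga
miR-9c-3p: tAAAGCTTttataccaaagct
The miR-315 precursor spanned 130721 to 130853 on the plus strand of contig JFBF01000100.1, and the miR-1000 precursor 1908097 to 1908179 on the plus strand of JFBF01000020.1. The miR-iab-4 precursor spanned 390040 to 390113 on the minus strand of JFBF01000063.1. miR-iab-8-5p, which was in both male lists, was placed on the plus strand over the same bases, from 390044 to 390122. In Drosophila, iab-4 and iab-8 are likewise made from opposite strands of 1 locus. Whether these precursors lie in a gene, an exon or an intron was not analysed here.

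Most shared names stood for the same sequences in both lists. Of the 120 shared names, 98 (81.7%) had an identical set of sequences, and each of the other 22 had at least 1 sequence in common. More sequences were listed for the body under 16 names and for the testes under 6. Over all names, 156 sequences were in both lists, 38 in the body only and 20 in the testes only, so that 80.4% of the body sequences and 88.6% of the testis sequences were shared. Of the 38, 17 belonged to body-only names and 21 to shared names. Of the 20, 14 belonged to testis-only names and 6 to shared names.

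**Figure D5:**
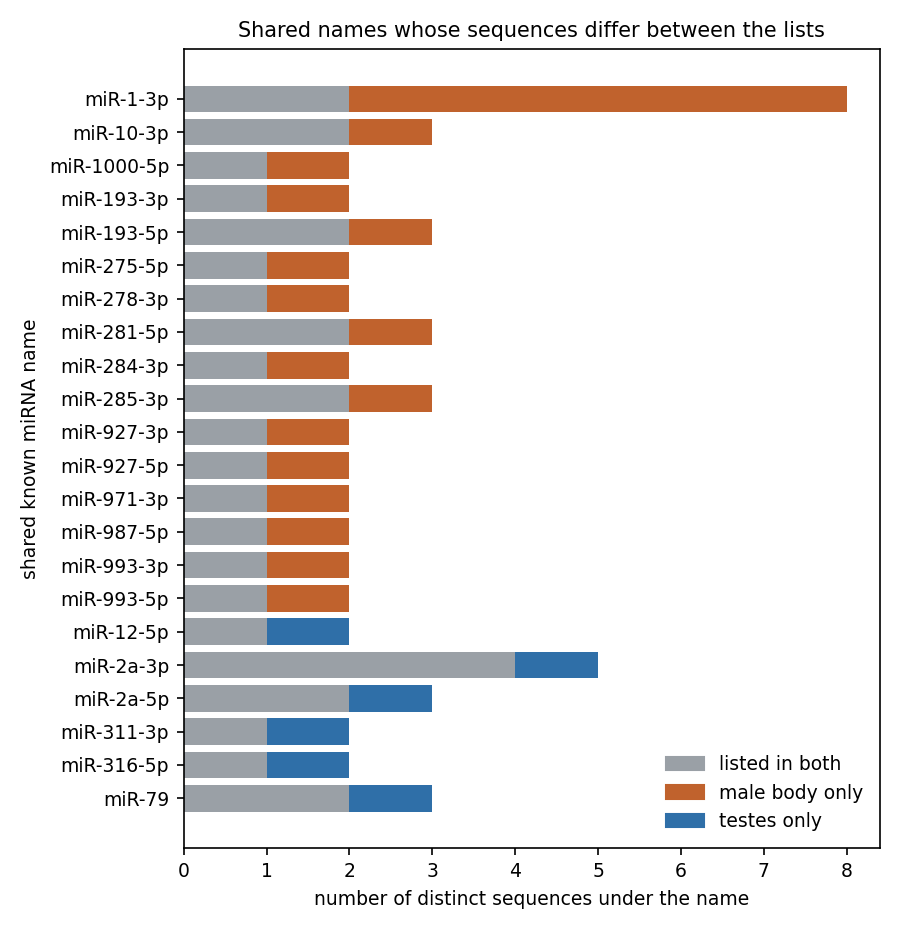
Number of distinct sequences (horizontal axis) under each of the 22 shared names whose sequences differed between the male lists; grey is the part found in both, orange in the male body only and blue in the testes only. miR-1-3p stands apart with 6 body-only sequences beside 2 shared ones, and no other name has more than 1 sequence in 1 list only.

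The largest difference was that of miR-1-3p, with 8 sequences in the body list and 2 in the testis list. Bases that differ from the nearest shared sequence are in capitals in the lines that follow, and a sequence that starts later or ends earlier is a shorter stretch of it.
miR-1-3p, both lists: tggaatgtaaagaagtatggag
miR-1-3p, both lists: tggaatgtaaagaagtatggct
miR-1-3p, male body only: aatAtaaagaagtatggag
miR-1-3p, male body only: aatgtaaagaagtatgAa
miR-1-3p, male body only: Aggaatgtaaagaagtat
miR-1-3p, male body only: atgtaaGgaagtatggag
miR-1-3p, male body only: tggaatgtaaagaagtaA
miR-1-3p, male body only: tggGatgtaaagaagtatggT
The 2 shared sequences were 22 nt long, and the 6 body-only ones were 18 to 21 nt long. Each of the 6 differed from a shared sequence at 1 or 2 bases, at G7A, G20A, T1A, A11G, T18A or A4G with A21T, where positions are counted from 1 at the 5′ end of the shared sequence. All 6 were also in the female body list and none was in the ovary list. They came from 7 entries, which spanned 25 to 105 bases of the genome, and 3 of these spans were under 50 bases. The shared entries of miR-1-3p spanned 71 and 91 bases, and the median over all entries was 91 bases in the body and 89 in the testes. The part of the short spans in the number of sequences was not tested. The entries marked New, which were left out, included 6 of mir-1 in the male body, 3 in the female body and 1 each in the testes and the ovaries.

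The other 15 body-only sequences of shared names came from 15 names with 1 sequence each. They were miR-10-3p, miR-1000-5p, miR-193-3p, miR-193-5p, miR-275-5p, miR-278-3p, miR-281-5p, miR-284-3p, miR-285-3p, miR-927-3p, miR-927-5p, miR-971-3p, miR-987-5p, miR-993-3p and miR-993-5p. Of the 15, 13 were placed only under a Drosophila arm name, and each of these 13 names also had a shared sequence on a B. dorsalis contig. Examples are shown with the differing bases in capitals.
miR-1000-5p, both lists: atattgtcctgtcacagcagt
miR-1000-5p, male body only: atattgGcctgtcacagcCgt
miR-193-3p, both lists: tactggcctactaagtcccaac
miR-193-3p, male body only: tactggcctactCagtcccCac
miR-971-3p, both lists: ttggtgttacttcttacagtga
miR-971-3p, male body only: ttggtgttacttcttGcGgtga
miR-993-3p, both lists: gaagctcgtctctacaggtatct
miR-993-3p, male body only: gaaTctcgtctctacaggGatct
miR-993-5p, both lists: taccctgtagttccgggcttt
miR-993-5p, male body only: taccctgtGgttccgggcttttt
miR-927-5p, both lists: tttagaattcctacgctttacc
miR-927-5p, male body only: tttagaattcctCcgctttCcc
The body-only sequence differed from the shared one at T7G and A19C in miR-1000-5p, at A13C and A20C in miR-193-3p and again in miR-927-5p, at A16G and A18G in miR-971-3p, at G4T and T19G in miR-993-3p, and at A9G in miR-993-5p. The changes at T7G and G4T lie in the seed. Of all 21 body-only sequences of shared names, 11 kept the seed of a shared sequence of that name, 15 were also in the female body, 0 were in the ovaries and 6 were in the male body alone. None was identical to a miRBase sequence. The body-only sequence of miR-10-3p held an unread base (N) in the seed and is not a distinct seed.

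The 6 testis-only sequences of shared names came from miR-12-5p, miR-2a-3p, miR-2a-5p, miR-311-3p, miR-316-5p and miR-79. Of these, 2 were placed under a Drosophila arm name alone. For miR-12-5p, miR-316-5p and miR-2a-5p they were the following.
miR-12-5p, both lists: tgagtattacatcaggtactggt
miR-12-5p, testes only: tgaTtattacatcaggtactggtat
miR-316-5p, both lists: tgtctttttccgcttactgtcg
miR-316-5p, testes only: GgtctttttccgcttactgG
miR-2a-5p, both lists: cctcatcaagtggttgtgata
miR-2a-5p, both lists: ttcttcaaagtggctgcgaaat
miR-2a-5p, testes only: TctcaCAaagtggttgtgaAatg
The sequence of miR-12-5p in the testes alone had G4T, inside the seed, and 2 further bases at the 3′ end. That of miR-316-5p, also in the testes alone, had T1G and T20G and kept the seed. The testis-only sequence of miR-2a-5p was listed in the ovaries too. It differed at 4 bases from the nearest shared one and had 2 further bases at the 3′ end. Among the 6, 3 kept a shared seed, 3 were also in the ovaries, 1 was also in the female body and 3 were in the testes alone.

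Counted by seed, the lists were about as alike as by name. There were 149 distinct seeds, of which 115 were in both lists, 22 in the body only and 12 in the testes only. Of the 22 body-only seeds, 14 came from body-only names and 8 from a variant of a shared name. Of the 12 testis-only seeds, 10 came from testis-only names and 2 from a variant. A name in 1 list only did not always bring a new seed. miR-312-3p in the body and miR-310-3p in the testes had the seed ATTGCAC, which miR-311-3p and miR-92b-3p carried in both lists, so each library had 3 names with it. miR-5-3p raised the names with the seed ATCACAG from 7 in the body to 8 in the testes. The seed of miR-309-3p was also that of miR-318-3p, which was in both lists. The mirtrons miR-1003-3p and miR-1004-3p shared CTCACAT, a seed found in the testis list and in no body entry marked Yes or Diff. Entries marked New were not searched for seeds.

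The sequences in 1 list only were close in length to the shared ones. All lay between 18 and 25 nt, with a median of 22 nt in all 3 groups. Lengths of 21 to 23 nt made up 80.8% of the shared, 73.7% of the body-only and 70.0% of the testis-only sequences. A first base U, the usual first base of a miRNA, was found in 53.8%, 42.1% and 65.0%. The lists held slightly more 3p than 5p names, with 59 5p and 65 3p names in the body and 57 and 66 in the testes.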

How the data were processed

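Small RNA of adults aged 12 days was made into 1 library each for the male body without testes, the testes, the female body without ovaries and the ovaries, and samples were grouped by their titles. The authors removed adaptors, reads of low quality and reads matching mRNA, Rfam or Repbase, and searched the rest against miRBase and known miRNAs of this species, allowing a single mismatch. The labels name ACGT101-miR version 4.2 and a GAIIx, while the paper names MIREAP, RNAfold and a Hiseq2500. The deposited lists give names, sequences, lengths, positions and a status (Yes, Diff or New), with no amounts. The build behind the Drosophila arm names is not given in the sources used here. The table of predicted miRNAs was not used.

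The body list held 235 entries and the testis list 208, with 2 repeated rows dropped from each, and 28 and 21 entries marked New were left out. Names apart only by a copy number were joined, and 205 and 185 entries remained. Neighbours had starts within 10000 bases, and a close relative shared at least 15 bases in a run. All names in 1 list only are named, with every pair of arms complete in 1 list and every shared name whose sequences differ. Names with an entry on arm 2R, and miR-137-3p and miR-309-3p, are shown without a sequence. The members, the miRNA lists (mostly from what is known in Drosophila) and the comparisons were chosen with earlier results of these data known. Depth is not known per entry, so no interval is given. No statistical test was made. Python 3.11.15, pandas 2.3.3, numpy 2.4.6 and matplotlib 3.10.9 were used, and 38 of 38 simulated cases came out as planted. Alternatives were other ways of counting names, sequences, arms and seeds.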

Additional observations from a re-analysis of the deposited data

Results flagged for a closer look

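A few names were listed crosswise, in the body of one sex and the gonad of the other. miR-9369-5p was the 1 name in the male body and the ovaries that was in neither the testes nor the female body. miR-310-3p was the 1 name in the testes and the female body that was in neither the male body nor the ovaries. Both were placed under a Drosophila arm name only. In males and females these names stood on opposite sides of the split between body and gonad, and with 1 library per condition that difference was not tested.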

How the results depend on the processing

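Of 47 values recomputed under other ways of counting, 36 stayed within 1.5 times the reported one. With the entries marked New kept, 28 names were in the body only and 25 in the testes only, of 183. Without entries under a Drosophila arm name, the numbers were 11 and 6 of 124 for names and 19 and 9 of 150 for sequences. With entries identical to miRBase alone, 49 names were shared, 5 were in the body only and 5 in the testes only, of 59. By family, 8 were in the body only and 6 in the testes only, of 94. Fewer entries or larger units leave fewer names to differ, by construction. In 8 of 8 settings, the main count included, there were at least as many body-only as testis-only names, with a tie for entries identical to miRBase. These settings recount the same 2 lists, so they do not show that the difference would recur in other libraries. Merging copy numbers, joining or leaving out names without an arm, joining similar sequences and a seed of bases 2 to 7 changed no count by more than 1.5 times. No paired analysis was possible because each condition had 1 library and no test was made. Leaving out a replicate was likewise not possible. The unknown depth per entry and the unequal depth of the libraries limit all counts.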

Other observations

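The entries marked New include other sequences under the stem names of body-only miRNAs. The testis list held mir-315-p3 and mir-963-p3, which by name are the same arms as miR-315-3p and miR-963-3p. Their sequences had runs of only 3 and 4 bases in common with the body-only ones and lay on other contigs, JFBF01000021.1 from 1124331 to 1124442 and JFBF01000638.1 from 35352 to 35410. Under a reading of these names as the same arms, chosen after seeing the data, miR-315-3p and miR-963-3p would count as shared. The other 29 names in 1 list only would keep their place. The testis list also held mir-219-p3, where the body-only miR-219 has no arm in its name, and mir-963-p5, by name the opposite arm of miR-963-3p.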
